A study of Mus musculus with 2 samples.

Results

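The 9 genes described here encode liver enzymes that handle nitrogen and amino acids, namely Cps1, Otc, Ass1, Asl, Glul, Oat, Tat, Hpd and Hal. They were chosen by name, as the rows of the deposited expression table whose gene symbol equals 1 of these names, and each name matched 1 row, 9 of 54532 genes in all. The study compared macrophages from the aorta of mice with abnormal blood lipids under 2 syndromes of traditional Chinese medicine, Phlegm-Dampness Retention (PDR) and Spleen and Kidney Yang Deficiency (SKYD). Aortic cells that carried F4/80 and CD11b, both found on the surface of myeloid cells such as macrophages, were sorted, and each group was sequenced as 1 library made from a pool of 5 mice. All mice were ApoE-/-, which lack apolipoprotein E and accumulate cholesterol-rich lipoproteins, on the C57BL/6J background, male according to the methods of the study and labelled as 6 weeks old. The PDR mice received a high-fat diet for 4 weeks. The SKYD mice received propylthiouracil, a drug that blocks thyroid hormone synthesis, at 10 mg/kg per day for 4 weeks and then a high-fat diet for 2 weeks. Syndrome, drug, time on the diet and age cannot be told apart in these libraries, and with 1 pool per group no difference has a replicate check.

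The urea cycle turns the ammonia released from amino acids into urea, and its complete set of enzymes is found mainly in hepatocytes. Hepatocytes near the portal vein (periportal) carry most urea synthesis and amino acid breakdown, while a narrow layer around the central vein (pericentral) expresses glutamine synthetase and takes up the ammonia that escaped. Some of these enzymes also work in macrophages, where Ass1 and Asl recycle citrulline to arginine and Glul makes glutamine.

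Levels are FPKM, which are reads scaled to gene length and library size, as deposited. FPKM times gene length came out as whole numbers of reads (within 0.02) for 100% of the genes above 0 in each library, 23086889 reads in PDR and 25427863 in SKYD. Differences are log2(FPKM + 1) in PDR minus the same in SKYD, a scale that understates the change of genes with low levels, and ratios of FPKM are given beside them. Intervals are 95% exact (Clopper-Pearson) limits on the split of reads and cover counting error only. The 10399 genes whose FPKM averaged 1 or more over both libraries are called tested genes here, and all 9 enzymes were among them.

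On this scale, Tat, Hpd and Otc exceeded 2-fold towards PDR (3 of 9 enzymes), and Glul and Hal exceeded it towards SKYD (2 of 9). Of the 10399 tested genes, 7.38% exceeded 2-fold towards PDR and 6.91% towards SKYD. By the plain ratio of FPKM, which does not damp low levels, Cps1 and Ass1 also passed 2-fold, so that 5 of 9 enzymes were higher in PDR and the same 2 in SKYD, against 10.5% and 10.1% of tested genes. Asl and Oat lay close to equality. In pools of this kind, fewer cells of a type and less RNA per cell cannot be told apart. The differences of the 9 enzymes ran from -1.99 to 2.17 with a median of 0.91, while the median of all tested genes was -0.0035.

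**Figure D1:**
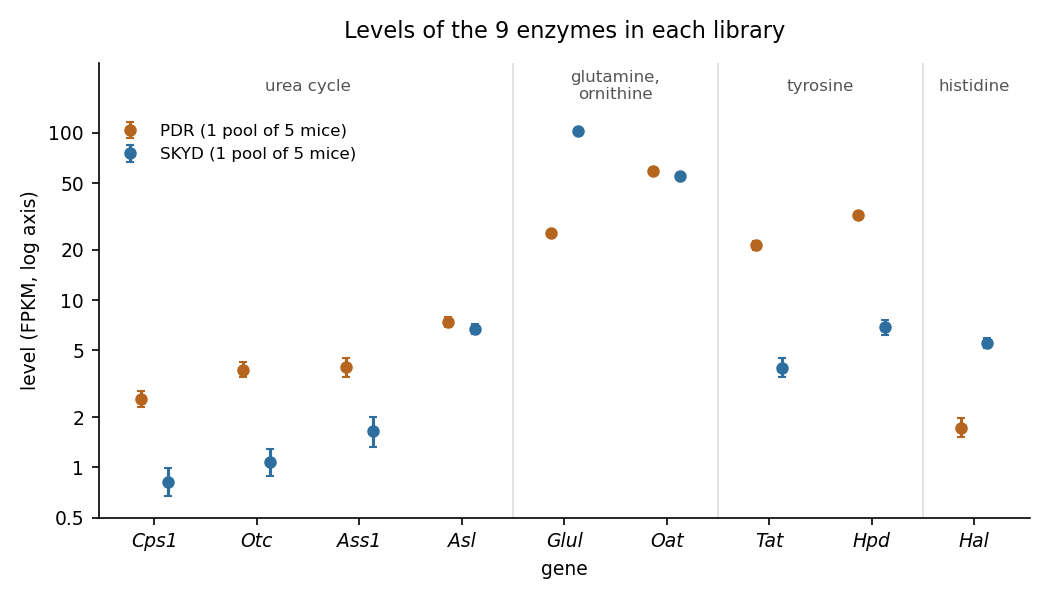
Level of each enzyme (FPKM, log axis) in the PDR library and the SKYD library, each 1 pool of 5 mice, grouped by pathway; bars are 95% counting intervals and some are smaller than the points. Cps1, Otc, Ass1, Tat and Hpd lie higher in PDR, Glul and Hal lie higher in SKYD, and Asl and Oat nearly coincide.

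The order of the enzymes by level differed between the libraries. In PDR, Oat was the most abundant at 59.2 FPKM, followed by Hpd, Glul, Tat, Asl, Ass1, Otc, Cps1 and Hal. The counting intervals of the neighbours Ass1 (3.47 to 4.52) and Otc (3.46 to 4.24) overlapped. In SKYD, Glul came first at 102 FPKM, and Hal moved from the last place to the fifth. There the intervals of Hpd (6.21 to 7.64) and Asl (6.26 to 7.20) overlapped, as did those of Otc (0.887 to 1.29) and Cps1 (0.677 to 0.986). Together the 9 enzymes took 0.0436% of reads in PDR and 0.0560% in SKYD.

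The promoters of 3 enzymes that were higher in PDR and 2 of enzymes that were higher in SKYD are shown, as the enzymes past 2-fold in each direction. Each line holds the 250 bases before the transcription start in RefSeq on GRCm38.p6, 5′ to 3′ on the strand of the gene, which covers chrX:10252055-10252304 for Otc (plus strand), chr8:109990186-109990435 for Tat (plus), chr5:123182724-123182973 for Hpd (minus), chr10:93488518-93488767 for Hal (plus) and chr1:153899679-153899928 for Glul (plus). Capitals mark matches to TATAAA (the TATA box) or TTGCNNAA (bound by C/EBP proteins) on either strand.
Otc: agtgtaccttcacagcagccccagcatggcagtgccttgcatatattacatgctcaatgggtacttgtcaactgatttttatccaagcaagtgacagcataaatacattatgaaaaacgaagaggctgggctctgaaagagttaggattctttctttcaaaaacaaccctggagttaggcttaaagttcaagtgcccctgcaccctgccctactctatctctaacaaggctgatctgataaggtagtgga
Tat: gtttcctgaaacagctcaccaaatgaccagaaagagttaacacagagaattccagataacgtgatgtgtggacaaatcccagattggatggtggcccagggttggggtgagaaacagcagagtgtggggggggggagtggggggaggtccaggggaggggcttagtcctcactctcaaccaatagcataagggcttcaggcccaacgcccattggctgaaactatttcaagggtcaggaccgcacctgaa
Hpd: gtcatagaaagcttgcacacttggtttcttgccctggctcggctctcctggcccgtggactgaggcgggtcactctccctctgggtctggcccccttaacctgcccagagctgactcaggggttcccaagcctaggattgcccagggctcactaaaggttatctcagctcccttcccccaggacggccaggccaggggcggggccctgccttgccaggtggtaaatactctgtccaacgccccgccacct
Hal: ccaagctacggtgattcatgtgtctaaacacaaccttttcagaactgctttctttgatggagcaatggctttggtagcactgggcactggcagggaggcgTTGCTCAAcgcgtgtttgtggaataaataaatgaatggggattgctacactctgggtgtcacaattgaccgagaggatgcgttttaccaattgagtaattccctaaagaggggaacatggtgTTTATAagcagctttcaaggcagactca
Glul: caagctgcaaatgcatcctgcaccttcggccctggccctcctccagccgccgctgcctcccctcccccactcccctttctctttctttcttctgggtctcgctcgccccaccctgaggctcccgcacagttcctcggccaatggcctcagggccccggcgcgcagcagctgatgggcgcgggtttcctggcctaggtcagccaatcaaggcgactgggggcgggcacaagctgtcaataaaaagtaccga
The table of promoters held 7 of the 9 enzymes. Of these 7, only Hal had a match, with TATAAA on the reverse strand 28 bases and TTGCNNAA 150 bases before the start. TATAAA occurred in 12.4% and TTGCNNAA in 9.56% of 32851 promoters of this length. None of the 7 held CAAAGTCCA (a letter form for HNF4, 0.384% of promoters), TGTTTAC (FOXA, 3.17%) or TGACGTCA (the cAMP response element, 1.55%). The windows also differed in composition, with 43.6% G and C for Otc, 45.6% for Hal, 53.6% for Tat, 62.8% for Hpd and 64.8% for Glul, where the median promoter had 52.4%. A match or its absence describes these letters only.

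Of the 4 enzymes of the urea cycle, 3 were higher in PDR by ratios of 2.42 to 3.57 and the fourth, Asl, was nearly equal. Cps1 (ENSMUSG00000025991, chr1:67123026-67231259 on GRCm38) encodes carbamoyl phosphate synthetase, the mitochondrial enzyme through which ammonia enters the cycle. Its level was 2.58 FPKM in PDR (337 reads) and 0.821 in SKYD (114 reads). The ratio was 3.15 (95% CI 2.54 to 3.92) and the log2 difference 0.98 (95% CI 0.81 to 1.14), just short of 2-fold on that scale. Otc (ENSMUSG00000031173, chrX:10252305-10321024), ornithine transcarbamylase, joins carbamoyl phosphate to ornithine in mitochondria. Otc had 3.83 FPKM in PDR (382 reads) and 1.08 in SKYD (114 reads). The log2 difference of Otc was 1.22 (95% CI 1.04 to 1.40), higher than that of 94.4% of tested genes, and the ratio was 3.57.

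Both cytosolic steps of the cycle follow. Ass1 (ENSMUSG00000076441, chr2:31470207-31520672), argininosuccinate synthetase, had 3.97 FPKM in PDR (225 reads) and 1.64 in SKYD (99 reads). This is a ratio of 2.42 (95% CI 1.90 to 3.10) and a log2 difference of 0.91 (95% CI 0.67 to 1.15). Ass1 shares 35.3% of its 64-base stretches with the transcript of a processed pseudogene, Gm5424, which had 111 and 68 reads, so the split of reads between this copy and the gene is uncertain. Asl (ENSMUSG00000025533, chr5:130011258-130029247), argininosuccinate lyase, releases arginine and behaved differently from the other 3. Its levels were 7.41 FPKM in PDR (841 reads) and 6.72 in SKYD (811 reads), a log2 difference of 0.12 (95% CI 0.00 to 0.25). The level of Asl was 1.87 times that of Ass1 in PDR and 4.09 times in SKYD.

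Other genes of the urea cycle list pointed the same way. The ornithine carrier Slc25a15 had 2.27 and 0.960 FPKM (0.74 on the log2 scale). The aspartate carrier Slc25a13 had 3.05 and 2.06 FPKM (0.40). Nags, which makes the activator of Cps1, had 18 reads in PDR and 3 in SKYD, a ratio of 6.38 with a wide counting interval (95% CI 1.86 to 33.8). In all, 8 of 9 genes of the list were tested, all 8 were higher in PDR, 1 (Otc) passed 2-fold on the log2 scale and 5 did so by the ratio, and the median was 0.83.

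Arginine is also the substrate of nitric oxide synthesis and polyamine synthesis in macrophages, and a list of 10 such genes, which overlaps the urea cycle list, had a median of 0.87 over 7 tested genes (0.48 without a filter on FPKM). Nos2, the inducible nitric oxide synthase, had 12 reads in PDR and 2 in SKYD, a ratio of 6.38 (95% CI 1.42 to 58.7), and 0.116 FPKM at most. Odc1, the first enzyme of polyamine synthesis, had 33.4 and 17.9 FPKM, a log2 difference of 0.87. Azin1, which protects Odc1 from degradation, had 7.0 and 5.61 FPKM (0.27). Agmat, annotated as agmatinase, had 3.51 and 0.626 FPKM and the largest difference of the list at 1.47. The arginine transporters were low, Slc7a1 with 0.554 and 0.822 FPKM and Slc7a2 with 0.666 and 0.526.

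Among the 9, glutamine and ornithine enzymes gave the highest level in each library, Oat in PDR and Glul in SKYD, and the largest difference towards SKYD. Glul (ENSMUSG00000026473, chr1:153899944-153909723), glutamine synthetase, joins ammonia to glutamate. Its level was 25.1 FPKM in PDR (1956 reads) and 102 in SKYD (8492 reads). The log2 difference was -1.99 (95% CI -2.06 to -1.92), a level 4.08 times higher in SKYD (95% CI 3.88 to 4.29), and 2.10% of tested genes had a lower difference. Glul shares 8.98% of its 64-base stretches with other annotated transcripts, among them the pseudogene Glns-ps1 with 3 and 28 reads. It also shares 116 exon bases (3.49%) with Teddm2 on the opposite strand, which had 10 and 14 reads, and whether the counting used strand is not given in the sources used here. Oat (ENSMUSG00000030934, chr7:132557478-132576398), ornithine aminotransferase, converts ornithine to glutamate semialdehyde in mitochondria. Oat had 59.2 FPKM in PDR (3284 reads) and 54.8 in SKYD (3232 reads), a log2 difference of 0.11 (95% CI 0.04 to 0.18). Glul and Oat thus changed places, with Glul at 0.423 times the level of Oat in PDR and 1.87 times in SKYD.

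Glul had the lowest difference among the genes of glutamine, glutamate, ornithine and proline metabolism. Of 15 genes of that list 12 were tested, 10 were higher in PDR and 2 in SKYD, and the median was 0.22. The largest difference towards PDR was that of Pycr1, an enzyme of proline synthesis, with 2.48 FPKM in PDR and 0.539 in SKYD (1.18). Of the 10 tested genes other than Glul and Oat, 0 exceeded 2-fold towards SKYD on the log2 scale. By the ratio of FPKM 1 did, Prodh, named after its values were seen, with 0.688 FPKM in PDR and 1.78 in SKYD (-0.72 on the log2 scale). The median of the list ranged from 0.11 with a mean FPKM of at least 5 to 0.39 in TPM.

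Tyrosine breakdown showed the largest differences towards PDR. Tat (ENSMUSG00000001670, chr8:109990437-109999803), tyrosine aminotransferase, starts the pathway and is a known target of glucocorticoids in liver. Its level was 21.2 FPKM in PDR (1199 reads) and 3.94 in SKYD (237 reads). The log2 difference was 2.17 (95% CI 2.0 to 2.34), above that of 98.5% of tested genes, and the ratio was 5.38 (95% CI 4.68 to 6.21). Hpd (ENSMUSG00000029445, chr5:123171807-123182727), 4-hydroxyphenylpyruvate dioxygenase, takes the next step. Hpd had 32.1 FPKM in PDR (1606 reads) and 6.90 in SKYD (367 reads), a log2 difference of 2.07 (95% CI 1.92 to 2.22) and a ratio of 4.66 (95% CI 4.15 to 5.23). Tat was at 0.661 times the level of Hpd in PDR and 0.571 times in SKYD.

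Of the 8 genes of the tyrosine and phenylalanine list, all tested, 6 exceeded 2-fold towards PDR. The median was 1.57, and without Tat and Hpd the median of the other 6 was 1.54. The other 2 were Gstz1, named after its values were seen, with a log2 difference of 0.54, and Qdpr, which regenerates the cofactor of phenylalanine hydroxylase and is expressed in many tissues. Its levels were 32.4 and 30.2 FPKM, a log2 difference of 0.10 (95% CI -0.01 to 0.21).

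Hal was higher in SKYD, while the enzymes that follow it were higher in PDR. Hal (ENSMUSG00000020017, chr10:93488768-93519304), histidine ammonia-lyase, releases ammonia from histidine as the first step of its breakdown in liver and skin. Its level was 1.73 FPKM in PDR (225 reads) and 5.56 in SKYD (771 reads). The log2 difference was -1.27 (95% CI -1.41 to -1.12) and the level was 3.22 times higher in SKYD (95% CI 2.77 to 3.75), with 4.84% of tested genes below it. The 3 enzymes that follow Hal had a mean FPKM under 1 and were all higher in PDR. Uroc1, urocanate hydratase, had 30 reads in PDR and 1 in SKYD, a ratio of 31.9 with a counting interval from 5.31 to 1302. Amdhd1, which opens the imidazole-derived ring, had 49 and 18 reads, and Ftcd, which ends the pathway, had 80 and 17. Together these 3 genes had 159 reads in PDR and 36 in SKYD, a ratio of 4.70 (95% CI 3.26 to 6.95). The level of Hal was 4.69 times that of Uroc1 in PDR and 482 times in SKYD, the latter resting on the single read of Uroc1.

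**Figure D2:**
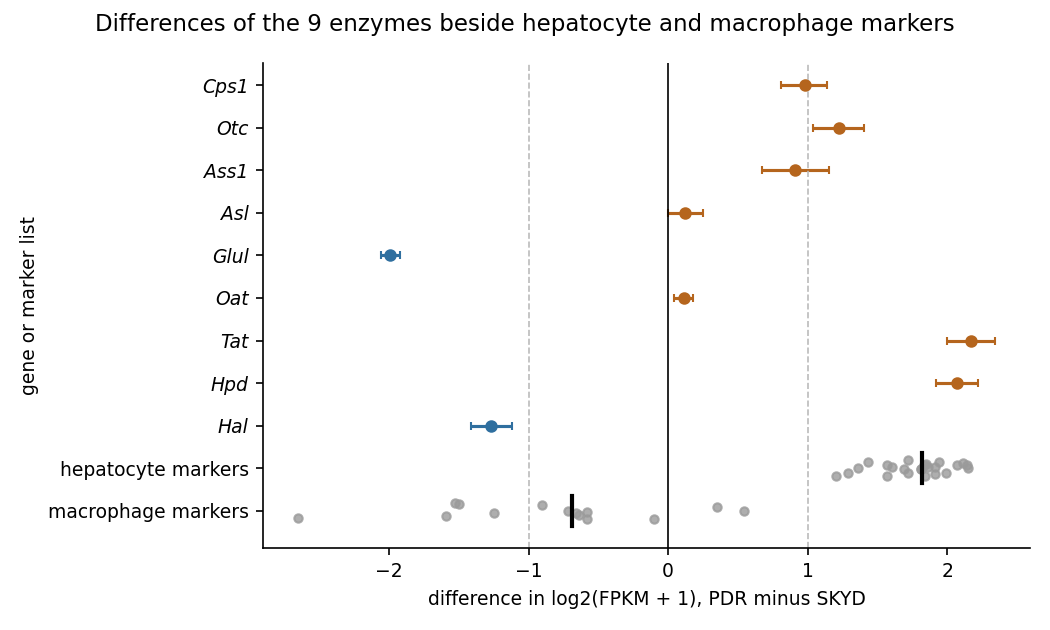
Difference in log2(FPKM + 1), PDR minus SKYD, of each enzyme with its 95% counting interval, and of the tested hepatocyte and macrophage markers (grey points, black line at the median); dashed lines mark 2-fold. Hpd at 2.07 lies within the range of the hepatocyte markers, which reach 2.15, Tat at 2.17 lies just above it, and Glul at -1.99 and Hal at -1.27 lie within the range of the macrophage markers.

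Other lists of amino acid enzymes were set beside the 9. Over the 48 tested genes of the amino acid pathway lists (the arginine list left out) that are not among the 9, 44 were higher in PDR and 4 in SKYD, 17 exceeded 2-fold towards PDR and 0 towards SKYD on the log2 scale, and the median was 0.69. By the ratio of FPKM these counts were 23 and 1. Tryptophan enzymes had a median of 0.99 over 5 tested genes (0.62 without a filter on FPKM), from 0.48 for Afmid to 1.48 for Tdo2, the liver enzyme that opens the tryptophan ring. The most abundant of them, Haao, had 61.9 FPKM in PDR and 30.6 in SKYD, and Kmo had 12 and 4.4. Methionine and one-carbon enzymes had a median of 1.30 over 7 genes. Gnmt, which uses up methyl groups in liver, had 93.5 and 23.1 FPKM (1.97), whereas Mat2a, the form of methionine adenosyltransferase found outside the liver, had 43.5 and 40.7 FPKM (0.09).

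Glycine, serine and threonine enzymes had a median of 1.09 over 7 genes, which was 0.39 both without a filter on FPKM and with a mean FPKM of at least 5. They ran from -0.15 for Gcsh, with 28.5 FPKM in PDR and 31.6 in SKYD, to 1.5 for Shmt1, with 5.11 and 1.16. Dld, a subunit shared by several mitochondrial enzyme complexes, was the most abundant gene of the list, with 43.1 and 32.7 FPKM, and Amt and Tdh had 0 reads in both libraries. Branched chain enzymes, which most tissues outside the liver carry, had a median of 0.14 over the 9 of 11 genes that passed the filter, and none of these 9 was more than 2-fold apart. With a mean FPKM of at least 5 this median turned to -0.30. Their ends were Hibadh at -0.63, with 9.42 FPKM in PDR and 15.1 in SKYD, and Mccc2 at 0.58, with 3.37 and 1.93. Bcat2 had the highest mean level, with 13.9 and 17.4 FPKM. Below the filter, Bcat1, the cytosolic aminotransferase, had 180 reads in PDR and 20 in SKYD, a ratio of 9.58 (95% CI 6.02 to 16.1, counting error only).

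**Figure D3:**
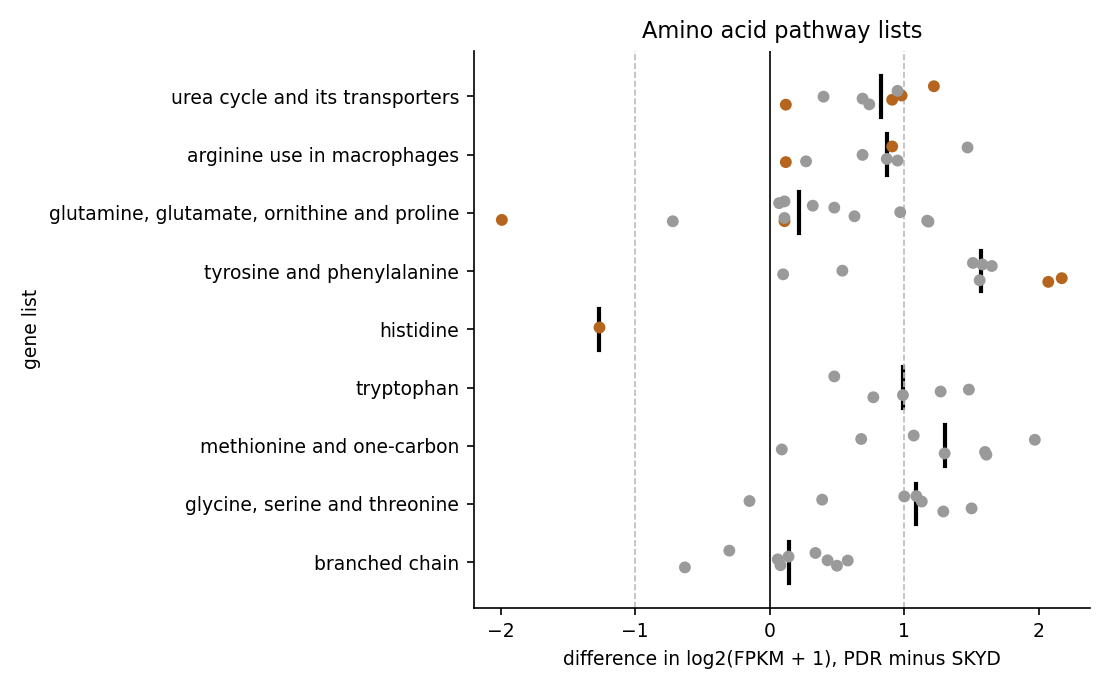
Difference in log2(FPKM + 1), PDR minus SKYD, of the tested genes of each amino acid pathway list (points, with the 9 enzymes in brown) and the median of each list (black line); dashed lines mark 2-fold. Tyrosine and phenylalanine genes have a median of 1.57 and branched chain genes of 0.14, and Glul and Hal are the only genes left of the lower dashed line.

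Periportal and pericentral enzymes were then compared. The 5 periportal enzymes among the 9 (Cps1, Otc, Ass1, Asl and Hal) summed to 19.5 FPKM in PDR and 15.8 in SKYD. The pericentral Glul and Oat summed to 84.3 FPKM in PDR and 157 in SKYD. The periportal share of this sum was 18.8% in PDR and 9.15% in SKYD. By reads it was 27.7% (95% CI 26.7 to 28.8) and 14.0% (95% CI 13.4 to 14.6). The direction of this comparison turned when the longer lists of zone genes were taken without the 9 enzymes, an alternative chosen after the values were seen. The periportal share was then 48.5% in PDR and 63.6% in SKYD, and by reads 51.0% (95% CI 50 to 51.9) and 65.2% (95% CI 63.8 to 66.6).

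The tested pericentral genes other than Glul and Oat thus did not share the direction of Glul. Of all 13 pericentral genes other than these 2, tested or not, 9 were higher in PDR and 3 in SKYD. Of the 7 tested ones, 5 exceeded 2-fold towards PDR and 0 towards SKYD on the log2 scale, with a median of 1.25. Cyp2e1, named after its values were seen, was the most abundant of them, with 62.7 FPKM in PDR and 14.4 in SKYD. The largest difference was that of Cyp1a2, a P450 enzyme of drug metabolism, with 13.5 and 2.35 FPKM (2.11, 95% CI 1.90 to 2.32). Lgr5, a receptor of pericentral cells, had 0 reads in both libraries. Periportal genes other than the 9 had a similar median of 1.29 over 7 tested genes, of which 4 exceeded 2-fold towards PDR and 0 towards SKYD. G6pc, which releases glucose from glucose 6-phosphate, had 4.18 and 0.348 FPKM (1.94), and Cyp2f2 had 14.8 and 3.46 FPKM. With the 9 enzymes included, the medians were 0.94 over 12 periportal and 1.24 over 9 pericentral genes. With a pseudocount of 0.01 the periportal median was 1.46, and without a filter on FPKM the pericentral one was 0.10.

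**Figure D4:**
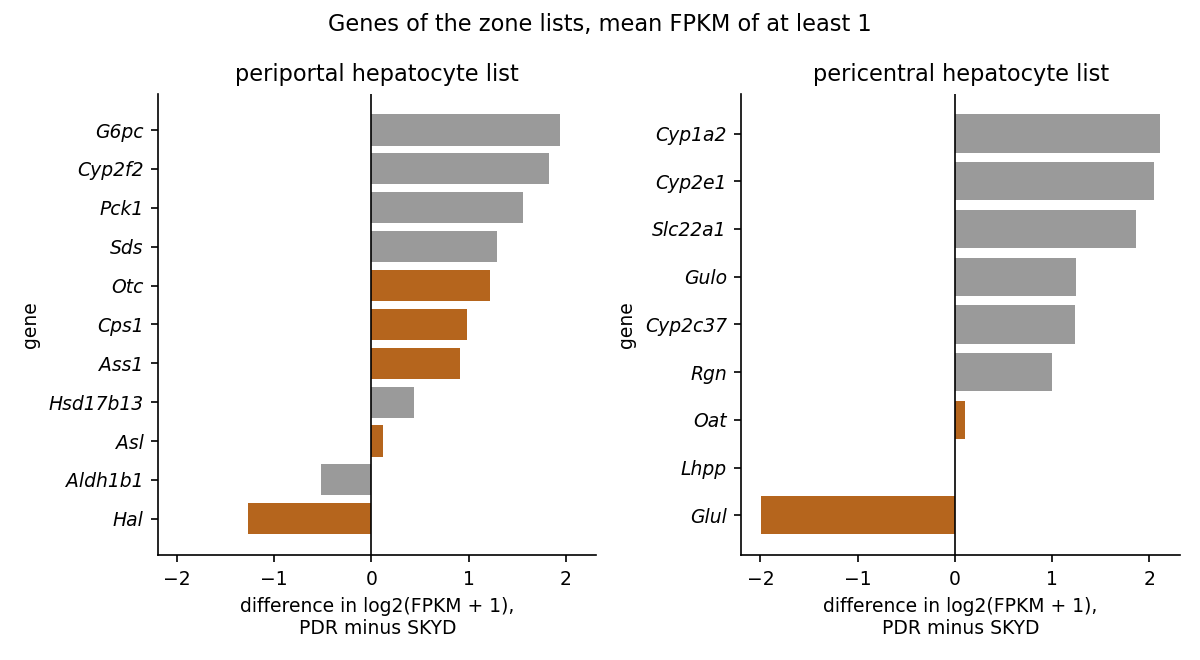
Difference in log2(FPKM + 1), PDR minus SKYD, of tested genes of the periportal list and of the pericentral list, with the 9 enzymes in brown and other genes in grey. Most bars point towards PDR, Lhpp rounds to 0.00, and Hal and Glul are the longest bars in the other direction.

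Hepatocyte markers moved with the enzymes that were higher in PDR. All 24 tested hepatocyte markers of 27 exceeded 2-fold towards PDR. Their median was 1.82, with ratios from 2.45 (Fabp1) to 7.04 (Plg). The list summed to 3147 FPKM in PDR and 985 in SKYD and took 0.426% and 0.116% of reads. Its most abundant gene, Apoa2, had 793 and 294 FPKM, and no marker was at 0 in both libraries. The part of hepatocyte RNA in the levels of the 9 enzymes was not tested. Of the liver transcription factors, Nr0b2 had 4.93 and 1.02 FPKM (1.55) and Cebpa, which myeloid cells also express, had 3.04 and 6.92 (-0.97). This list had a median of 1.0 over 3 tested genes.

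Set against the summed reads of the hepatocyte markers (98443 in PDR and 29482 in SKYD), the enzymes fell into groups. Otc had 3.88 reads per 1000 marker reads in PDR and 3.87 in SKYD, a ratio of 1.0 (95% CI 0.812 to 1.25). Cps1 had 3.42 and 3.87, a ratio of 0.885 (95% CI 0.714 to 1.10). The intervals of both include 1, so no difference from the summed markers was detectable at this depth. Taken singly, 21 of 27 markers had a higher ratio of FPKM than Cps1 and 16 had a higher ratio than Otc. Tat, with 12.2 and 8.04, and Hpd, with 16.3 and 12.4, exceeded the markers with ratios of 1.52 (95% CI 1.32 to 1.75) and 1.31 (95% CI 1.17 to 1.47). Even so, 4 of 27 markers had a higher ratio of FPKM than Tat, and 7 had a higher ratio than Hpd.

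The other 5 enzymes fell behind the hepatocyte markers. Ass1 had 2.29 and 3.36 reads per 1000 marker reads, a ratio of 0.681 (95% CI 0.535 to 0.871). Asl and Oat had ratios of 0.311 and 0.304. Hal, with 2.29 and 26.2, had a ratio of 0.0874 (95% CI 0.0750 to 0.102). Glul, with 19.9 and 288, had the lowest ratio at 0.0690 (95% CI 0.0656 to 0.0725). For each of these 5, all 27 markers had a higher ratio of FPKM between PDR and SKYD. These intervals take the marker sums as fixed.

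**Figure D5:**
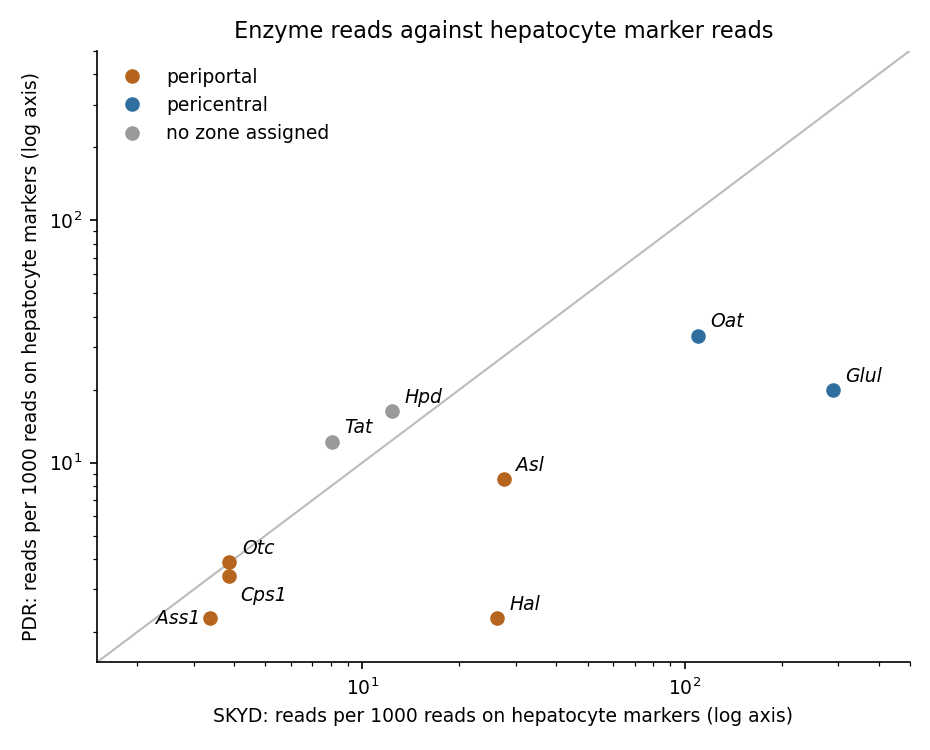
Reads of each enzyme per 1000 reads on hepatocyte markers in SKYD (horizontal, log axis) and PDR (vertical, log axis), with the line of equality, coloured by liver zone. Otc lies on the line and Cps1 close to it, Tat and Hpd lie above it, and Hal (26.2 in SKYD, 2.29 in PDR) and Glul (288 and 19.9) lie furthest below it.

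Most macrophage markers were higher in SKYD, as Glul and Hal were. Of 14 macrophage markers, all tested, 12 were higher in SKYD, 5 of them more than 2-fold, and the median was -0.69. They summed to 25033 FPKM in PDR and 48410 in SKYD, most of it from Lyz2 with 22217 and 41336. Both sort markers were expressed, Adgre1 (F4/80) at 87.3 and 93.3 FPKM and Itgam (CD11b) at 8.84 and 14.4. Per 1000000 reads on macrophage markers, Glul had 2488 in PDR and 5273 in SKYD, a ratio of 0.472 (95% CI 0.449 to 0.496). For Hal these values were 286 and 479, a ratio of 0.598 (95% CI 0.513 to 0.694). Of the 14 markers, 13 had a higher ratio of FPKM than Glul and 13 than Hal. The part of the macrophage content in these differences was not tested.

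Markers of other cell types that could bring these enzymes were also read. Otc and Cps1 are made in the epithelium of the small intestine as well, where Alpi, Cdx2, Lct, Muc2 and Sis of 9 markers had 0 reads in both libraries. That list summed to 3.18 FPKM in PDR and 1.58 in SKYD, of which Fabp2 gave 2.34 and 1.12. Ass1 and Asl are abundant in the proximal tubule of the kidney, where Kap, Lrp2, Slc22a12, Slc22a6 and Umod of 9 markers had 0 reads in both libraries. The kidney list summed to 0.249 and 0.835 FPKM, its most abundant gene being Slc34a1 with 0.246 and 0.505. A count of 0 allows up to 3 reads, or a share of 1.30e-05% in PDR and 1.18e-05% in SKYD.

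Several lists other than the macrophage list had higher summed levels in SKYD, in some cases through 1 gene. The T and NK cell list summed to 194 FPKM in PDR and 1251 in SKYD, led by Cd8b1 with 39.7 and 535, and 7 of its 9 genes exceeded 2-fold towards SKYD. The other 2, the NK cell genes Ncr1 and Klrb1c, named after their values were seen, were higher in PDR, with 11.2 and 2.49 FPKM (1.81) for Ncr1. Platelet markers summed to 251 and 1471 FPKM, nearly all from Pf4 with 218 and 1446, while 4 of the 5 tested platelet genes were higher in PDR and the median was 0.34. The fibroblast list summed to 10.8 and 43.7 FPKM and the stellate cell list to 10.3 and 39.8, in both cases led by Dcn with 10 and 39.4, and Hand2 of the stellate cell list had 0 reads. The liver sinusoidal endothelium list summed to 5.08 and 20.2 FPKM, led by Lyve1 with 3.84 and 17.3, with Oit3 at 0 reads. Cholangiocyte markers summed to 11.1 and 22.2 FPKM, led by Krt19 with 4.64 and 13.7. Kupffer cell markers summed to 150 and 234 FPKM, led by Cd5l with 110 and 159, and of 5 tested genes 2 were higher in PDR and 3 in SKYD. Erythroid markers summed to 20989 and 28335 FPKM, led by Hba-a1 with 10807 and 15651, with 0 genes past 2-fold and a median of -0.29.

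The remaining lists had higher summed levels in PDR. B cell markers summed to 1728 FPKM in PDR and 390 in SKYD, led by Cd79b with 802 and 168, and all 6 tested ones exceeded 2-fold towards PDR. Neutrophil markers summed to 4811 and 3629 FPKM, led by S100a9 with 2209 and 1677, with a median of 1.0 over 9 genes. Endothelial markers were low, at 4.46 and 2.91 FPKM, led by Pecam1 with 3.89 and 2.57. Smooth muscle markers were close to equal at 3.15 and 2.92 FPKM, led by Acta2 with 1.55 and 2.34, and Cnn1, Myh11 and Tagln had 0 reads in both libraries. The part of these cell types in the differences of the 9 enzymes was not tested.

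The counts depend on the scale chosen as zero. Of the tested genes, 767 exceeded 2-fold towards PDR and 719 towards SKYD, so that 51.6% of them were higher in PDR. Centred on the median of the macrophage markers, a shift of 0.69, these counts were 2779 and 309, or 90.0%, and 5 enzymes exceeded 2-fold towards PDR and 1, Glul, towards SKYD. The sign of each enzyme's difference was the same under each of the 8 or 9 alternatives that gave it a value. Other pseudocounts, other filters and the restriction to protein-coding genes cannot change a sign. Only TPM, the centrings and the ratio of recovered reads could have changed it.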

How the data were processed

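Each group was measured by RNA sequencing of 1 library, from macrophages sorted out of the aortas of 5 mice. According to the submitters' processing notes and the methods of the study, the authors aligned reads with TopHat2 2.0.9 on a Bowtie2 2.0.6 index, counted them per gene with HTSeq 0.6.1 and deposited FPKM, which were used as given. The notes name the build mm9, whereas the start and end of all 9 genes in the table equal GENCODE M21 on GRCm38. The authors' own comparison of the groups was not used, and 0 other columns of sample values were left aside.

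Read numbers were obtained from FPKM and gene length by the step of the low values, which gave library sizes behind FPKM of 23487992 for PDR and 24993633 for SKYD, and the steps were tested on simulated data. A pseudocount of 1, a mean FPKM of at least 1 and a threshold of 2-fold were used. With 1 library per group no test was run and no p-value computed. A floor of 3 reads was used for a count of 0. The 9 genes, the 10 pathway lists, 2 zone lists and 16 cell type lists were chosen with earlier results of these data known. The genes named are the 9 enzymes, every gene of the urea cycle and arginine lists, in each other pathway or zone list the 2 with the highest mean FPKM and the largest difference each way among tested genes, and in each cell type list the most abundant gene and those at 0 in both libraries; any other gene is a sort marker, an enzyme that follows Hal, the end of a range or a gene picked with its values known. Where a symbol of a list had a second row (1 case, not among the 9), the row with the higher level was used. Sequence shared between genes was found as stretches of 64 bases in GENCODE M21 transcripts, and promoters were those of RefSeq on GRCm38.p6. Some genes of these lists are not reported here. As alternatives, the pseudocount was set to 0.1 and 0.01, the filter was dropped or raised to a mean of 5, and values were rescaled to TPM. Further ones were centring on the median of all tested genes or of the macrophage markers, the ratio of recovered reads, protein-coding genes only, a 4-fold threshold and other choices of zone genes. The software was Python 3.11.15 with scipy 1.17.1 for intervals, pandas 2.3.3 and numpy 2.4.6 for tables, and matplotlib 3.10.9.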

Additional observations from a re-analysis of the deposited data

How the results depend on the processing

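The sign of the difference of each of the 9 enzymes was the same under all alternatives that gave it a value. Of these, only TPM, the centrings and the ratio of recovered reads could have changed a sign. Cps1 ranged from 0.98 to 1.70, Ass1 from 0.91 to 1.60, Glul from -2.03 to -1.30 and Hal from -1.68 to -0.58. The number of enzymes more than 2-fold higher in PDR, 3 as reported, was 5 with a pseudocount of 0.1, 5 with 0.01, 5 in TPM, 5 centred on macrophage markers and 5 by the ratio of recovered reads, and it was 2 with a mean FPKM of at least 5 and 2 at 4-fold. The number higher in SKYD, 2 as reported, was 1 with a mean FPKM of at least 5, where Hal was not tested, 1 centred on macrophage markers and 0 at 4-fold. Over all genes, 464 were higher in PDR and 373 in SKYD with a mean FPKM of at least 5, 2779 and 309 centred on macrophage markers and 194 and 216 at 4-fold. The ratio of reads gave 1170 higher in PDR, and protein-coding genes alone gave 473 higher in SKYD. Counts over all genes also rose towards PDR, from 767 to 1057 with a pseudocount of 0.1, 1096 with 0.01 and 1047 in TPM. Towards SKYD they went from 719 to 1010, 1048 and 948 under the same settings. The rise from 3 to 5 was thus not particular to the enzymes. With pseudocounts of 0.1 and 0.01, list medians rose to 1.14 and 1.18 for the urea cycle, 1.84 and 1.88 for tyrosine and phenylalanine, 1.83 and 1.86 for methionine, 1.46 and 1.52 for glycine, serine and threonine, 0.33 and 0.35 for glutamine and related genes, 1.38 and 1.46 for periportal and 1.63 and 1.69 for pericentral genes. Without a filter on FPKM, which lets in genes with a mean FPKM under 1, the medians were 0.62 for tryptophan, 1.02 for methionine, 0.39 for glycine, 0.32 for glutamine, 0.48 for arginine and 0.10 for pericentral genes. The glutamine median rose from 0.22, while the others of these fell. With a mean FPKM of at least 5 they were 1.27 for tryptophan, 0.39 for glycine, 0.11 for glutamine, 0.69 for arginine and -0.30 for branched chain genes, which changed sign. In TPM the glutamine median was 0.39, and the cause was not tested. The periportal share in PDR and SKYD was 46.4% and 14.5% with Tat and Hpd on the periportal side, 27.7% and 14.0% by reads, 38.4% and 26.4% with the longer lists, and 48.5% and 63.6% with the longer lists without the 9 enzymes, chosen after the data were seen, the only choice under which the share was higher in SKYD. Leaving out Ass1, Asl, Glul and Oat as genes widely expressed in macrophages removes every pericentral enzyme, so no share could be given. The spread between mice cannot be measured with 1 pool per group, and counts as low as the 1 read of Uroc1 in SKYD limit the ratios of the histidine pathway. No paired analysis was possible because each group has 1 library.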
